A study of Arabidopsis thaliana with 24 samples.

Results

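CML37 (AT5G42380), AT3G01830 and AT1G76640 are 3 genes grouped here as calmodulin-like genes of the early salt response, among 13350 named genes on the array. The rule that lists them names no comparison or threshold, and they are taken to have been chosen by a strong rise in wild-type roots after 1 h of salt. The values behind that choice are taken to be those of wild type at 1 h against control, so all wild-type differences from the control are given below as a description with no test. The gene tables used here give AT3G01830 no gene name, and they list CML39 as an alternative name of both CML37 and AT1G76640, so locus codes are used for these 2 genes. The background set was the 6 other measured genes with a symbol of CML and a number, namely CML23, CML30, CML38, CML41, CML42 and CML43.

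Calmodulin-like proteins are small relatives of calmodulin that bind calcium through EF-hand motifs and pass the signal on to target proteins. Salt raises free calcium in the cytosol of root cells soon after contact, and sensors of this kind are among the proteins that read that signal. Transcripts of several of these genes are known to rise after touch, wounding, pathogen elicitors and other stresses. CML37 in Arabidopsis is known for roles in jasmonate-dependent defence against insects and in drought responses.

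The RNA came from roots of 6-week-old Arabidopsis thaliana of the Col-0 background, grown in hydroponics, and some labels call the same material seedling roots. Col-0 wild type and the bzip1/bzip53 double mutant, labelled a knockout of a pair of bZIP transcription factor genes, were each sampled untreated and after 150 mM NaCl had been given for 1 h, 3 h or 6 h. Each of the 8 groups had 3 arrays whose titles call them biological replicates. The labels name no allele and do not say how plants were divided between arrays, so a p-value reflects only how far these arrays spread, which may be technical. A harvest time shortly before the end of the light period is stated for salt-treated roots, and none is stated separately for the controls. The roots are bulk tissue, in which a change in RNA per cell and a change in the share of cells that hold the RNA cannot be told apart.

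Levels are RMA values on a log2 scale, on which a difference of 1 is a doubling, and each of the 9 genes was read by 1 probe set. Levels are compared between arrays for the same gene and not between genes, because probe sets differ in brightness. A log2 level under 5 is taken as near the background, and a fold against such a level has no exact size. BZIP53 lay between 8.67 and 9.24 on the 12 mutant arrays and between 10.37 and 11.12 on the 12 wild-type arrays, so the groups did not overlap and signal remained in the mutant. Of the root markers 2 of 10 were named in the gene table: EXPA7, a root-hair expansin, ranged from 5.68 to 8.49 and EXPA18, another, from 4.88 to 7.81. Of the leaf and shoot markers 3 of 9 were named: RCA, the activator of Rubisco, ranged from 5.51 to 7.15, and the stomatal-lineage genes FAMA and SPCH stayed under 5 on every array (3.32 to 3.83 and 3.06 to 3.75).

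In untreated roots the 3 genes did not have a common level across replicate arrays. CML37 was at 3.38, 3.63 and 8.75 on wild-type control arrays 1, 2 and 3, and at 8.79, 5.95 and 4.96 on mutant control arrays 1, 2 and 3. AT3G01830 was at 3.50, 3.20 and 8.03 in wild type and at 7.16, 4.99 and 3.59 in the mutant. AT1G76640 was at 4.37, 4.28 and 6.53 in wild type and at 5.5, 4.59 and 4.4 in the mutant. Wild-type control array 3 and mutant control array 1 were thus the highest of their groups for all 3 genes, and wild-type control array 3 lay within the range of the wild-type salt arrays for each of them.

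**Figure D1:**
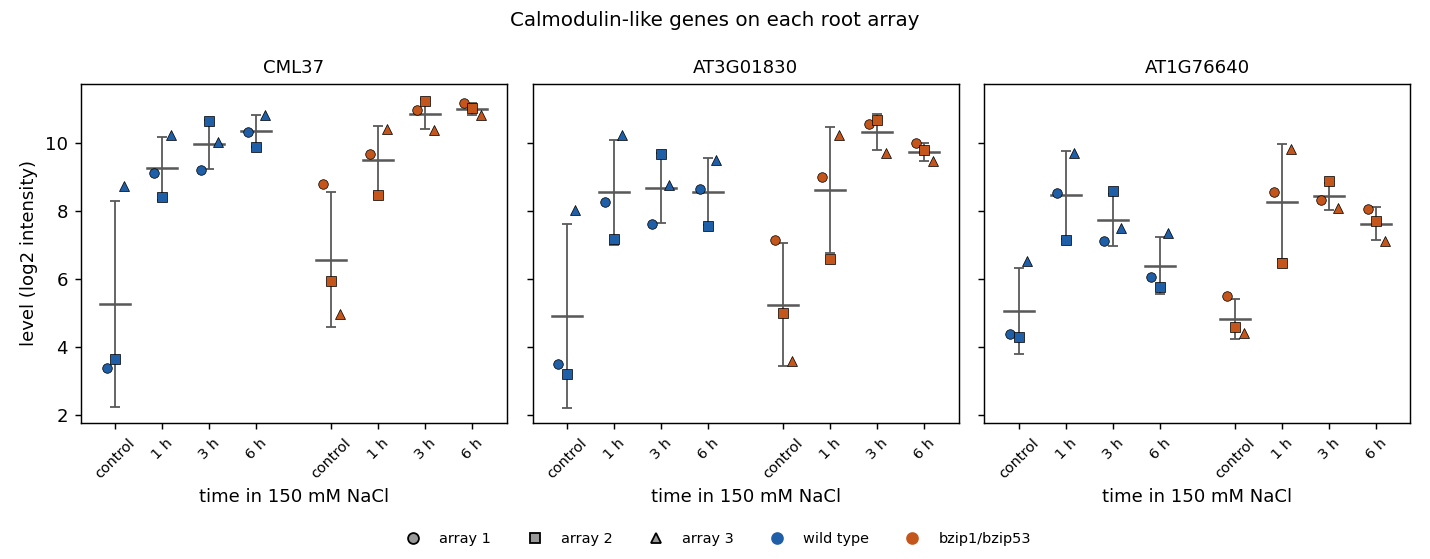
Log2 level (vertical axis) of CML37, AT3G01830 and AT1G76640 on each of the 24 arrays, by genotype and by control or hours in 150 mM NaCl (horizontal axis), with symbols for arrays 1 to 3 (wild type blue, mutant orange), lines for group means and bars for the SD of 3 arrays. The CML37 controls spread from 3.38 to 8.79, whereas its 6 arrays at 6 h lay between 9.89 and 11.17.

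These gaps were among the largest on the arrays. Wild-type control array 3 lay above the mean of arrays 1 and 2 by 5.24 for CML37, 4.67 for AT3G01830 and 2.20 for AT1G76640, which ranked 3, 12 and 145 among 22746 probe sets. Mutant control array 1 lay above the mean of arrays 2 and 3 by 3.33, 2.87 and 1.01, which ranked 5, 11 and 293. The gap reached 2 or more upwards in 173 probe sets (0.761%) in wild type and in 42 (0.185%) in the mutant. The 40 probe sets in both lists made up 23.1% of the wild-type list and 95.2% of the mutant list, and the 2 gaps come from separate control groups.

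**Figure D2:**
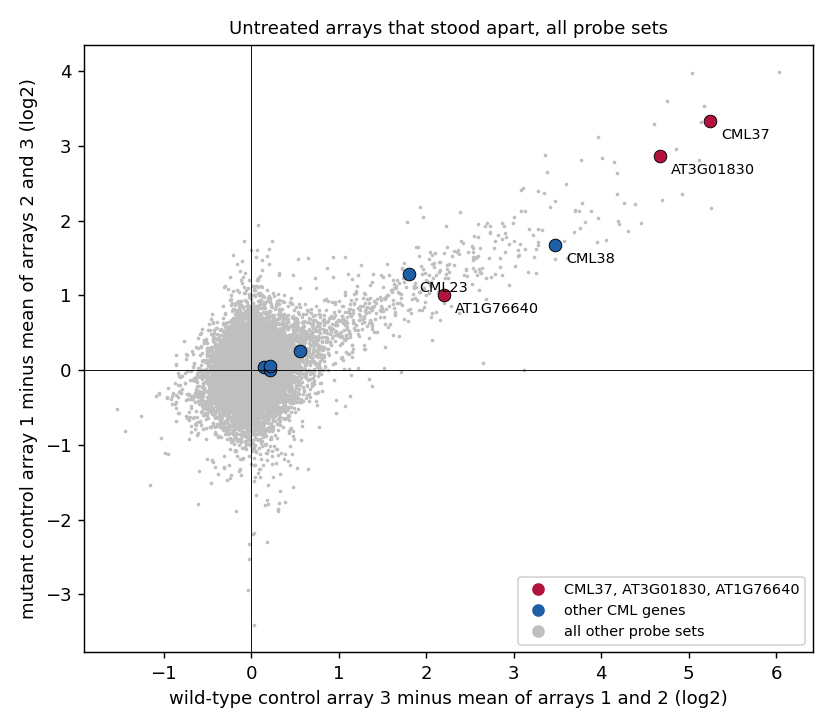
Gap on wild-type control array 3 above the mean of control arrays 1 and 2 (horizontal axis, log2) against the gap on mutant control array 1 above the mean of arrays 2 and 3 (vertical axis, log2), one point per probe set, with CML37, AT3G01830 and AT1G76640 in red and the other CML genes in blue. CML37 (5.24 and 3.33) and AT3G01830 (4.67 and 2.87) lie far from the bulk of probe sets.

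Array quality values differed for one of these arrays. On mutant control array 1 the dap spike-in probe sets averaged 6.27, against 3.07 to 3.18 on the other 23 arrays, and its actin probe sets had a 3' to 5' gap of 3.17, against 2.38 to 3.16. Wild-type control array 3 had a spike-in mean of 3.18 and an actin gap of 2.55, within the range of the other arrays. The 25S ribosomal probe set was lower on every control array than on any salt array, from 13.03 to 13.47. It was at 11.93 on mutant control array 1 and from 12.52 to 12.71 on the other control arrays. The part of these differences in the results was not tested. Differences from the control are therefore also given below without wild-type control array 3 and mutant control array 1, a pair picked after the data were seen and partly on these genes, so p-values without them are too small.

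After salt the mean level of each of the 3 genes lay above its control mean in both genotypes. The difference was smallest for AT1G76640 in wild type at 6 h. In wild type CML37 was at 9.12, 8.40 and 10.24 at 1 h, at 9.20, 10.65 and 10.04 at 3 h, and at 10.33, 9.89 and 10.83 at 6 h. AT3G01830 was at 8.26, 7.18 and 10.22 at 1 h, at 7.61, 9.68 and 8.76 at 3 h, and at 8.65, 7.54 and 9.50 at 6 h. AT1G76640 was at 8.54, 7.13 and 9.72 at 1 h, at 7.10, 8.58 and 7.50 at 3 h, and at 6.06, 5.76 and 7.34 at 6 h. Control array 3 of wild type lay within the 1 h range for CML37 and AT3G01830 and within the 6 h range for AT1G76640.

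As a description, the wild-type mean of CML37 was 5.25 ± 3.03 (SD, n = 3) in the control and 9.26 ± 0.93, 9.97 ± 0.73 and 10.35 ± 0.47 at 1 h, 3 h and 6 h. AT3G01830 had means of 4.91 ± 2.70 in the control and 8.56 ± 1.54, 8.69 ± 1.04 and 8.57 ± 0.98 under salt, and AT1G76640 had 5.06 ± 1.27 and then 8.46 ± 1.29, 7.73 ± 0.77 and 6.38 ± 0.84. The differences from the control at 1 h, 3 h and 6 h were 4.0, 4.71 and 5.10 for CML37 (SE 1.04), 3.65, 3.78 and 3.66 for AT3G01830 (SE 1.12) and 3.41, 2.67 and 1.33 for AT1G76640 (SE 0.74). CML37 thus had its highest mean at 6 h, AT3G01830 had like means at all 3 times, and AT1G76640 had its highest mean at 1 h. Without the 2 control arrays the same differences were 5.75, 6.46 and 6.84 for CML37, 5.21, 5.34 and 5.21 for AT3G01830 and 4.14, 3.40 and 2.06 for AT1G76640. The rule has no threshold, so no values just inside or outside one can be given.

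In the mutant, whose arrays are separate from those taken to have chosen the genes, all 3 rose at all 3 times. Whether mutant values were also in view when the genes were proposed is not recorded. CML37 was at 9.67, 8.46 and 10.41 at 1 h, at 10.98, 11.23 and 10.38 at 3 h, and at 11.17, 11.02 and 10.83 at 6 h. AT3G01830 was at 9.0, 6.59 and 10.24 at 1 h, at 10.58, 10.69 and 9.70 at 3 h, and at 9.99, 9.79 and 9.47 at 6 h. AT1G76640 was at 8.55, 6.47 and 9.81 at 1 h, at 8.34, 8.88 and 8.10 at 3 h, and at 8.07, 7.70 and 7.12 at 6 h. The mutant salt arrays of AT1G76640 all lay above its controls, while at 1 h those of CML37 and AT3G01830 overlapped the high control array 1 and at 3 h and 6 h did not overlap. Of all probe sets 16.6%, 20% and 19.8% were higher without overlap in the mutant at 1 h, 3 h and 6 h.

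A gene was called where limma's p, adjusted by Benjamini-Hochberg over 22746 probe sets, was under 0.05, and all 9 tests were called higher. Of all probe sets 10.6%, 17.4% and 18.1% were called higher in the mutant at 1 h, 3 h and 6 h. CML37 rose by 2.95 (adjusted p = 0.0435), 4.3 (0.00182) and 4.44 (0.00128), and AT3G01830 by 3.36 (0.0341), 5.08 (0.000857) and 4.50 (0.00226). AT1G76640 rose by 3.45 (0.00177), 3.61 (0.000429) and 2.80 (0.00367). These are log2 differences between group means, with control means of 6.57 ± 1.99, 5.25 ± 1.80 and 4.83 ± 0.59 (SD, n = 3).

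The 1 h calls of CML37 and AT3G01830 depended on single arrays. They ended without mutant control array 2 (adjusted p = 0.116 and 0.0787), control array 3 (0.185 and 0.151), 1 h array 1 (0.104 and 0.0963) or 1 h array 3 (0.155 and 0.167). They also ended with only these groups in the fit (0.0761 and 0.0808). The adjusted p over single arrays left out ran from 0.0085 to 0.185 for CML37 and from 0.0108 to 0.167 for AT3G01830. Without the 2 control arrays the rises were 4.06, 5.41 and 5.55 for CML37, 4.32, 6.03 and 5.46 for AT3G01830 and 3.78, 3.94 and 3.14 for AT1G76640.

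**Figure D3:**
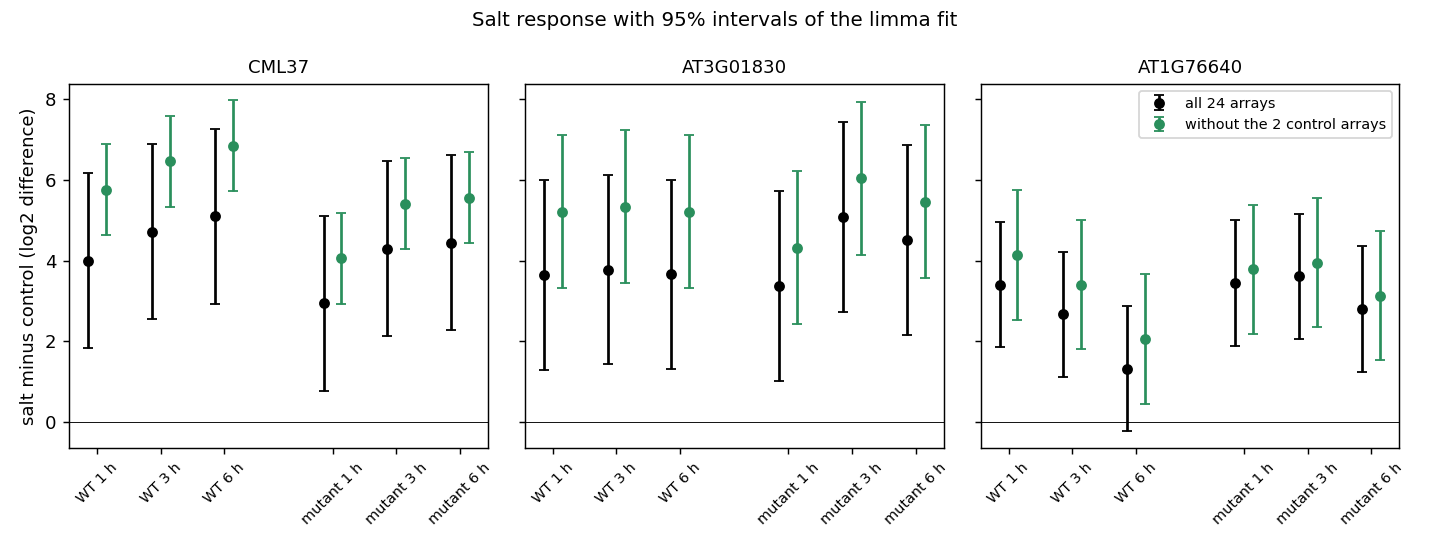
Log2 difference from the control of the same genotype (vertical axis) at 1 h, 3 h and 6 h of 150 mM NaCl (horizontal axis) in wild type (WT) and mutant for CML37, AT3G01830 and AT1G76640, with all 24 arrays (black) and without the 2 high control arrays (green). Bars give the 95% interval of the fit. In wild type they describe the spread and are not a test, because wild-type values are taken to have chosen the genes. The green bars are too narrow in both genotypes, because the 2 arrays left out were picked partly on these genes. With all arrays the mutant differences lie between 2.80 and 5.08, and in wild type AT1G76640 falls from 3.41 at 1 h to 1.33 at 6 h.

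From one time to the next none of the 3 genes was called. In limma 0 of 9 tests were called, and 0 of 9 had an unadjusted p under 0.05, where 14.9% of probe sets were called between 3 h and 6 h in wild type, 31.1% between 1 h and 3 h in the mutant and 11.8% between 3 h and 6 h in the mutant. CML37 differed by 1.35 between 1 h and 3 h in the mutant (adjusted p = 0.372), and the call was gained without the 2 control arrays, which are not part of this difference and enter only through the shared spread (0.0367). AT3G01830 differed by 1.71 (adjusted p = 0.283) and AT1G76640 by 0.16 (0.910). From 3 h to 6 h CML37 differed by 0.38 in wild type and 0.15 in the mutant, AT3G01830 by -0.12 and -0.57, and AT1G76640 by -1.34 (95% interval -2.89 to 0.21) and -0.81. The 3 h and 6 h arrays of AT1G76640 did not overlap in the mutant, where 15% of probe sets were lower without overlap, and did in wild type.

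Within a group the 3 genes ordered the arrays in much the same way. The same array was the highest of its group for all 3 genes in 8 of 8 groups, and the full order of the 3 arrays was identical in 7 of 8, all but the wild-type control. At 1 h array 3 was the highest and array 2 the lowest in both genotypes. Of the other calmodulin-like genes, CML23 and CML38 shared the highest array with CML37 in 6 of 8 groups, CML41 and CML42 in 5, CML30 in 2 and CML43 in 1. The arrays of a group are the same RNA for every gene, so this order describes these samples.

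The difference between CML37 and AT1G76640 within an array removes what raises or lowers both equally. This measure was added after the data were seen, from a pair whose time courses differed, so it is a description with no test. Only its change between groups can be read, since the probe sets differ in brightness. In the mutant it was 1.12, 1.99 and 0.60 at 1 h, 2.64, 2.35 and 2.28 at 3 h, and 3.10, 3.33 and 3.72 at 6 h. Its mean was higher than at 1 h by 1.19 at 3 h and by 2.14 at 6 h. In wild type it was 0.58, 1.27 and 0.53 at 1 h, 2.1, 2.07 and 2.54 at 3 h, and 4.28, 4.13 and 3.49 at 6 h. In the controls it was -0.99, -0.64 and 2.22 in wild type and 3.29, 1.36 and 0.57 in the mutant.

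**Figure D4:**
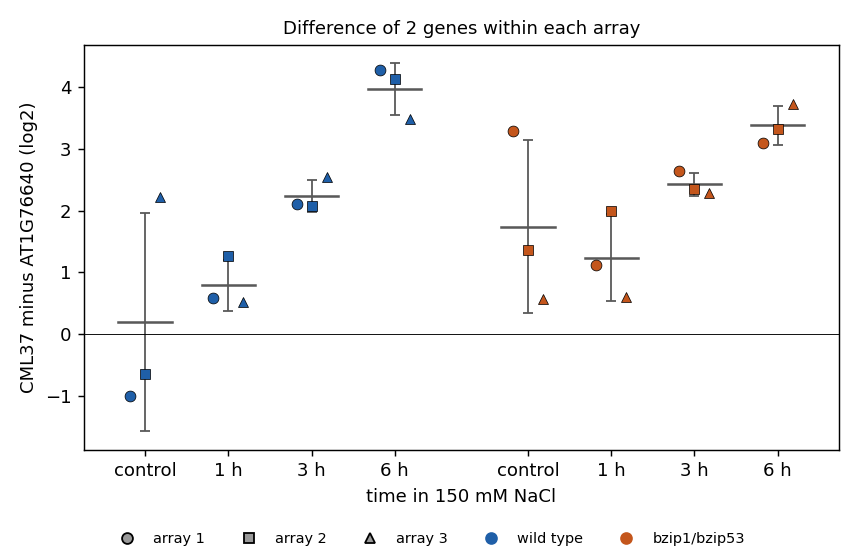
Log2 level of CML37 minus that of AT1G76640 on the same array (vertical axis) in the 8 groups (horizontal axis), with symbols for arrays 1 to 3 (wild type blue, mutant orange), lines for group means and bars for the SD of 3 arrays. In the mutant the 1 h arrays lie between 0.60 and 1.99 and the 6 h arrays between 3.10 and 3.72, and the controls are scattered.

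The mutant and the wild type were compared at 3 h and 6 h, where the genes are read apart from the arrays taken to have chosen them. None of the 3 genes was called at either time by limma (0 of 6, and 0 of 6 at an unadjusted p under 0.05), where 10.2% of probe sets were called at 3 h and 0.589% at 6 h. CML37 differed by 0.90 at 3 h (95% interval -1.26 to 3.06, adjusted p = 0.622) and by 0.66 at 6 h (-1.50 to 2.82, 0.835). AT3G01830 differed by 1.64 (-0.71 to 3.98, 0.372) and 1.18 (-1.16 to 3.53, 0.702), and AT1G76640 by 0.71 (-0.84 to 2.26, 0.578) and 1.24 (-0.31 to 2.79, 0.499). All 6 differences were above 0 as measured, and each interval holds both 0 and a difference of 2. The intervals use 1 spread per gene from all 8 groups, so the control arrays also set their width. For CML37 the SD was 0.73 in wild type and 0.43 in the mutant at 3 h, and 0.47 and 0.17 at 6 h. In the controls it was 3.03 and 1.99. Under the alternatives described below 0 of 6 were called by limma, with a lowest adjusted p of 0.0643 for AT3G01830 at 3 h.

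By the size of the difference at 6 h AT1G76640 ranked 6 and AT3G01830 ranked 9 from the top among 22746 probe sets, and CML37 ranked 153. The spread between arrays was also large for these genes. At 3 h the lowest mutant array of AT3G01830, 9.70, lay just above the highest wild-type array, 9.68, and 15% of probe sets were likewise not overlapping and higher. At 6 h the lowest mutant array of CML37, 10.834, lay just above the highest wild-type array, 10.831, where 6.03% of probe sets were higher without overlap. The other comparisons of the 3 genes at 3 h and 6 h overlapped. In the control and at 1 h, as a description, the mutant minus wild type was 1.31 and 0.26 for CML37, 0.34 and 0.05 for AT3G01830 and -0.23 and -0.18 for AT1G76640. The control values rested on the high arrays: without wild-type control array 3 they were 3.06 for CML37 and 1.89 for AT3G01830, and without both high arrays they were 1.95, 0.94 and, with the sign turned, 0.17 for AT1G76640.

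The other 6 calmodulin-like genes did not all change in the same direction under salt. Over 3 times and 2 genotypes 14 of 36 tests were called higher and 8 lower. The lower calls all came from CML43 and CML30, and the tests of a gene at different times share its control arrays. In wild type at 1 h, 3 h and 6 h 2, 3 and 3 of 6 genes were called higher and 1, 2 and 2 lower, where 9.33%, 12.4% and 16.4% of probe sets were called higher and 15.4%, 23.5% and 31.1% lower. In the mutant 2 genes were called higher and 1 lower at each time, where 10.6%, 17.4% and 18.1% of probe sets were called higher and 13.5%, 28.1% and 29.8% lower. The count called lower thus lay near or under the share over all probe sets in both genotypes. The median difference over the 6 genes was 0.13, 0.05 and 0.50 in wild type and 0.42, 0.84 and 0.63 in the mutant, and over all probe sets it lay between -0.08 and -0.02.

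CML23, a relative of CML24 linked to nitric oxide levels and flowering, rose at every time in both genotypes. Its wild-type arrays were at 5.93, 6.74 and 8.14 in the control and at 9.20, 8.83 and 9.52 at 1 h, and no salt array of wild type overlapped its control, where 13.7%, 16.1% and 18.3% of probe sets were higher without overlap at 1 h, 3 h and 6 h. It rose by 2.25, 2.30 and 2.55 in wild type (adjusted p = 0.00146, 0.000683 and 0.000157) and by 1.67, 2.30 and 2.46 in the mutant (0.014, 0.000461 and 0.000214). The mutant call at 1 h ended without mutant control array 3 (1.28, adjusted p = 0.0817), 1 h array 1 (1.54, 0.055) or 1 h array 3 (1.48, 0.0654). Without the 2 high control arrays the rises were 2.85, 2.90 and 3.15 in wild type and 2.1, 2.73 and 2.89 in the mutant.

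CML38, known for a role in root responses to low oxygen, lies next to AT1G76640 on chromosome 1, with no gene listed between them. Its control arrays were at 6.92, 8.04 and 10.95 in wild type and at 10.91, 9.80 and 8.67 in the mutant, so the same 2 control arrays were high. Under salt all 18 arrays lay between 10.19 and 11.68. It rose by 2.20, 2.27 and 1.82 in wild type (adjusted p = 0.0197, 0.0108 and 0.0295), and in the mutant it differed by 1.37, 1.57 and 1.30 and was not called (0.149, 0.0624 and 0.118).

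These CML38 calls depended on single arrays and on the fit. The wild-type calls at all 3 times ended without control array 1 (adjusted p = 0.144, 0.0951 and 0.239) or control array 2 (0.0843, 0.0529 and 0.114), and those at 1 h and 6 h also ended without array 3 of the salt group (0.0813 and 0.102). All 3 also ended in a fit of the control and that time alone (0.14, 0.0948 and 0.153). In the mutant all 3 differences were called with array weights (0.00261, 0.00292 and 0.0158). Without the 2 high control arrays the differences were 3.35, 3.43 and 2.98 in wild type and 1.93, 2.13 and 1.86 in the mutant, and all 6 were called. The difference of the responses between genotypes was not called for CML38 at any time.

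CML41, which acts at plasmodesmata in pathogen responses, rose later and by less. It was at 5.22, 5.19 and 5.42 in the wild-type control and at 6.43, 6.06 and 6.87 at 6 h. These did not overlap, where 18.3% of probe sets were higher without overlap. It rose by 0.65 at 3 h and 1.18 at 6 h in wild type (adjusted p = 0.0144 and 6.04e-05) and by 0.57, 1.41 and 1.57 in the mutant (0.0447, 7.4e-06 and 1.79e-06), and between 1 h and 3 h in the mutant by 0.84 (0.00322), where 11.6% of probe sets were called higher. The wild-type difference of 0.25 at 1 h was not called. The 3 h call in wild type ended without control array 2 (0.0505) or 3 h array 3 (0.0842), and the 1 h call in the mutant ended without any 1 of its control arrays or without 1 h array 1 or 3 (0.056 to 0.19), with arrays centred on their medians (0.0626) and without the 2 high control arrays (0.0949). Without those arrays the differences were 0.32, 0.73 and 1.25 in wild type and 0.57, 1.41 and 1.57 in the mutant.

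CML43, a calcium sensor gene linked to pathogen responses, fell. It was at 8.29, 8.41 and 8.57 in the wild-type control and at 7.31, 7.50 and 7.41 at 1 h, and no salt array in either genotype overlapped its controls. Of all probe sets 25.2%, 33.6% and 34.8% were lower without overlap in wild type and 19.7%, 31.7% and 31.7% in the mutant. It fell by 1.02, 1.37 and 1.5 in wild type (adjusted p = 1.39e-06, 1.25e-08 and 1.29e-09) and by 1.04, 1.60 and 1.52 in the mutant (1.04e-06, 6.02e-10 and 9.97e-10). Its control arrays lay between 8.29 and 8.59 in both genotypes, with no high array among them, and without wild-type control array 3 and mutant control array 1 its differences were -0.94, -1.30 and -1.43 in wild type and -1.02, -1.58 and -1.51 in the mutant.

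CML30, whose protein is found in mitochondria, fell in wild type by 0.67 at 3 h and 0.60 at 6 h (adjusted p = 0.00112 and 0.00174), and its 1 h difference of -0.19 was not called. In the mutant its differences of 0.28, -0.09 and -0.15 were not called, and nor was the difference of its responses between genotypes at any time. Without the 2 high control arrays the differences were -0.14, -0.62 and -0.55 in wild type and 0.29, -0.07 and -0.14 in the mutant. CML42, known from leaf-hair branching and insect defence, was not called under salt at any time in either genotype, with differences from -0.56 to 0.27, or from -0.37 to 0.36 without the 2 high control arrays.

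**Figure D5:**
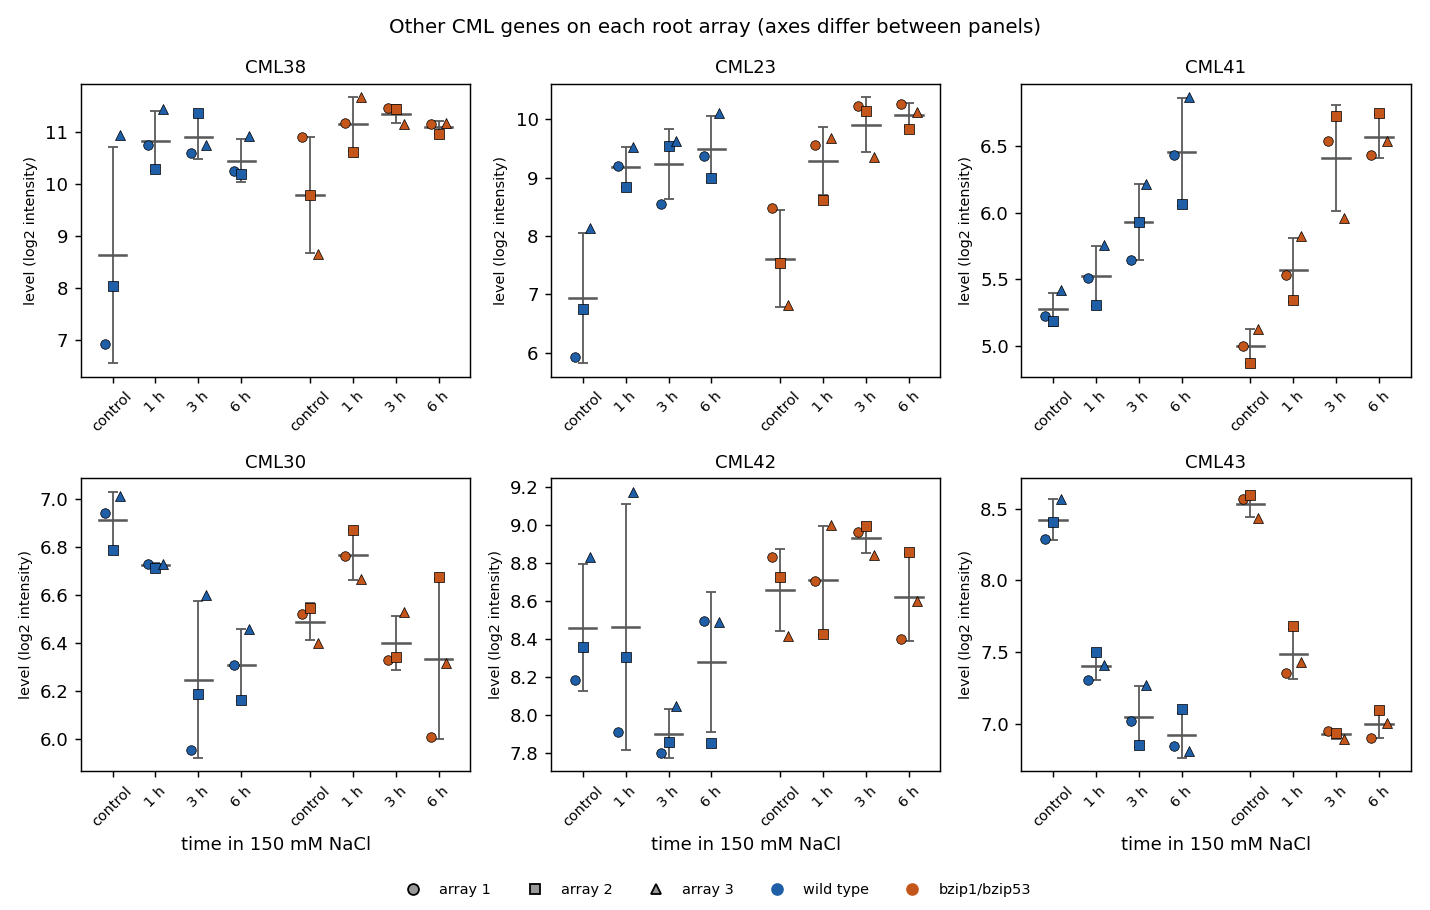
Log2 level (vertical axis) of CML23, CML30, CML38, CML41, CML42 and CML43 on each of the 24 arrays, by genotype and by control or hours in 150 mM NaCl (horizontal axis), with symbols for arrays 1 to 3 (wild type blue, mutant orange), lines for group means and bars for the SD of 3 arrays. CML23 and CML38 show the high controls (8.14 and 10.95 on wild-type control array 3), and CML43 lies at 7.69 or lower on every salt array and at 8.29 or higher on every control array.

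Between genotypes 1 of 42 tests of the other 6 genes was called, counting the 4 conditions and the difference of salt responses at 3 times. Of all probe sets 0.211% were called in the control and 0.022% at 1 h, and in the difference of responses 0%, 1.46% and 0.0791% at 1 h, 3 h and 6 h. CML42 was at 7.80, 7.86 and 8.05 in wild type and at 8.96, 8.99 and 8.84 in the mutant at 3 h. It was higher in the mutant by 1.03 (95% interval 0.51 to 1.54, adjusted p = 0.0126), where 4.32% of probe sets were called higher. The call ended without wild-type 3 h array 1 (0.98, 0.0503) or mutant 3 h array 1 (1.01, 0.0547), and the difference of its salt responses at 3 h, 0.83, was not called (0.244), and was 0.73 without the 2 high control arrays.

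Other genes of calcium signalling could be described only in part. Calmodulins, calcineurin B-like sensors and their kinases, calcium-dependent kinases, pumps and exchangers, touch genes and calmodulin-binding transcription factors had no member that was both measured and named in the gene table, so nothing is reported of them. The channel list had 7 such members, all glutamate receptor-like cation channels. Of their 42 tests against the control 13 were called lower (limma, adjusted p under 0.05), namely 2 of 7 genes at each time in each genotype and 3 of 7 in the mutant at 3 h. Of all probe sets 15.4%, 23.5% and 31.1% were called lower at 1 h, 3 h and 6 h in wild type and 13.5%, 28.1% and 29.8% in the mutant. The channels' count lay above that share at 1 h in both genotypes and at 3 h in the mutant, and near it otherwise. With only 7 genes 1 call moves the count's share widely, so nothing is read from it about the channels. GLR3.3, which takes part in wound-induced calcium signals, fell by 0.37, 0.44 and 0.33 in wild type and by 0.34, 0.44 and 0.49 in the mutant, and GLR3.5 fell by 0.66, 0.48 and 0.36 and by 0.62, 0.33 and 0.70. GLR3.6 made up the 13th call, lower by 0.60 in the mutant at 3 h.

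Some of the GLR3.5 calls were lost under other settings. Its mutant 3 h call ended with the replicate block (adjusted p = 0.055), with a variance trend (0.054), without the 2 high control arrays (0.102), and without any 1 of the mutant control arrays or 3 h array 1 or 2 (0.066 to 0.167). Its wild-type 6 h call ended with only its groups in the fit (0.0982), with arrays centred on their medians (0.0613), and when control array 1, control array 2, 6 h array 1 or 6 h array 3 was left out (0.0556 to 0.177). Its wild-type 3 h call ended without control array 2 (0.0531) or 3 h array 2 (0.0536). Without the 2 high control arrays the differences of GLR3.3 were -0.43, -0.49 and -0.39 in wild type and -0.32, -0.42 and -0.47 in the mutant, and those of GLR3.5 were -0.74, -0.56 and -0.44 and -0.60, -0.31 and -0.68. GLR3.6 then differed by -0.66 in the mutant at 3 h.

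The genes with the most similar pattern were found by Pearson correlation of the 8 group means over 2239 named genes whose group means spanned at least 1. This is a description with no p, and the 8 points share the same arrays and the same 2 high control arrays. For CML37 the closest were AR781 (0.997), AT4G36500 (0.996), AT5G64870 (0.996) and AT2G22880 (0.995). For AT3G01830 they were RING1 (0.994), a RING finger ubiquitin ligase gene, AT5G22530 (0.994), AT2G24600 (0.994) and AT1G21830 (0.993). For AT1G76640 they were AT3G27540 (0.996), AT5G64850 (0.989), AT1G74490 (0.985) and AT5G57100 (0.982).

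Among the 3 genes and the other CML genes compared, CML23 was the most like CML37, at 0.995 and rank 7 of 2239. Calmodulin-like genes under other names were not looked up. AT3G01830 followed CML37 at 0.974 (rank 69), CML38 at 0.923 (rank 309) and AT1G76640 at 0.796 (rank 698). CML43 ran the other way at -0.963. Many genes outside this set were thus closer to CML37 than AT3G01830 and AT1G76640 were. AT1G76640 was closer to CML38 (0.886) and AT3G01830 (0.883) than to CML37.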

How the data were processed

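Root RNA from 24 samples in 8 groups was read on 1-colour Affymetrix ATH1 arrays. The deposited log2 values were made by the authors, with RMA, affy and limma named and TAIR9 as build, per the submitters' processing notes, and the log2 scale was inferred from values of 2.46 to 14.04. RMA narrows differences between arrays and compresses low levels. Array medians ran from 6.53 to 6.67. The number of arrays limits the precision. The scanner files were not analysed here.

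Of 22810 probe sets, 64 controls were left out of the fit and 22746 tested. The platform table gave 1 symbol to 13513, several to 503 and none to 8730, and an NCBI RefSeq table (assembly TAIR10.1, names only) matched 13436 by Entrez identifier. All arrays entered 1 limma fit (3.58.1, R 4.3.3) of 8 group means, 16 residual and 3.83 prior degrees of freedom, two-sided, called at an adjusted p under 0.05 (Benjamini-Hochberg). Errors are SDs of arrays for levels and SEs or 95% intervals of the fit for differences. The fit was tested on simulated data.

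The genes and lists were chosen with earlier results of these data known. Named are the 3 genes, every measured CML gene, up to 3 genes of each calcium list called in 3 or more of 6 salt comparisons (GLR3.6, outside this rule, was chosen after its values were seen), the 4 most similar genes per member, and BZIP53. The replicate numbers were checked for pairing. Every same-numbered pair correlated over 0.1 in its deviations from the group means only for mutant against wild type at 1 h (0.177, 0.702 and 0.719) and for wild type at 6 h against control (0.148, 0.266 and 0.405), and over all 84 pairs the median was -0.003. Alternatives were the arrays in the fit, a variance trend, array weights, a replicate block, median centring, a filter on dim probe sets, leaving out each array, stricter calls, and leaving out the 2 high control arrays together. A list by description was not run, since the gene table has no descriptions.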

Additional observations from a re-analysis of the deposited data

How the results depend on the processing

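The 9 mutant salt calls of CML37, AT3G01830 and AT1G76640 numbered 7 to 9 with 1 array left out, 7 with only the groups compared or at an adjusted p under 0.01, and 9 under the other alternatives. Over 33 alternatives, left-out arrays included, 63 tested results for single genes gave 945 values, of which 849 kept direction and side of the threshold, 79 lost a call, 10 gained one and 7 changed sign. The sign changes were all in differences that were never called: AT3G01830 from 3 h to 6 h in wild type was 0.019 with array weights and ran from -0.66 to 0.39 with 1 array left out (0.38 without 3 h array 2, 0.39 without 6 h array 2), AT1G76640 from 1 h to 3 h in the mutant was -0.12 with array weights and ran from -0.74 to 0.93 (-0.74 without 1 h array 2, -0.061 without 3 h array 2), and CML37 from 3 h to 6 h in the mutant ran from -0.094 (without 3 h array 3) to 0.33. The cause was not tested. The 3 genes gained 1 call from one time to the next without the 2 high control arrays. At an adjusted p under 0.01 the other CML genes had 8 calls higher under salt in place of 14 and 0 between genotypes in place of 1, and with a fold of at least 2 the channels had 0 calls lower in place of 13, which follows from the stricter rules. With 1 array left out, the other CML genes had 9 to 17 calls higher and 8 to 9 lower under salt and 0 to 2 higher between genotypes, and the channels had 11 to 16 lower and 0 to 2 higher. With the replicate block over all 8 groups the 3 genes had 9 of 9 mutant salt calls, the other CML genes 14 higher and 8 lower, and the channels 12 lower. In fits of 2 groups with the replicate block, which for wild type paired 6 h with the control, the adjusted p of CML38 was 0.0485. It was 0.153 in the same groups without the block and 0.0295 in the main fit. No call of another CML gene changed there or for mutant against wild type at 1 h. The 3 genes are given no test in these comparisons, which use wild-type arrays taken to have chosen them. The alternative of another probe set was not run, because each named calcium gene has 1. Levels under 5 are near the background, so differences of the 3 genes from their lowest control arrays have no exact size.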

Other observations

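Genes other than the 3 genes and the other CML genes had the same high control arrays. The gap on wild-type control array 3 and that on mutant control array 1 were 5.25 and 2.17 for AT4G29780, 5.18 and 3.54 for AT3G02840, and 5.04 and 3.97 for ORA47, an AP2/ERF transcription factor gene linked to jasmonate. They were 4.75 and 3.6 for AT1G19210, 4.7 and 2.28 for AT4G27654, and 4.26 and 2.24 for AR781, which was also the gene most similar to CML37. These genes were picked for their gaps after the values were seen, and no test was made of them.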
